A study of Mus musculus with 109 samples.

Results

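The histone and histone variant genes of the count table were the rows whose symbols begin with Hist1h to Hist4h, H1f, H2af or H3f, and 54 of the 15973 listed genes met this rule. Of these, 40 carried a Hist symbol and are called clustered genes here, and 14 carried an H1f, H2af or H3f symbol and are called variant genes. GENCODE placed 35 of the clustered genes on mouse chromosome 13, 3 on chromosome 3 and 2 on chromosome 11, while the variant genes lay apart from each other. GENCODE annotated H2afy3, H3f3c, H3f3a-ps1 and H3f3a-ps2 as processed pseudogenes. Levels are given as CPM, the number of reads of a gene per 1000000 counted reads of the cell or pool. The genes were compared between cells with a Mki67 CPM of at least 100, called Mki67-high, and cells with a Mki67 CPM below 10, called Mki67-low.

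DNA is wound around octamers of the core histones H2A, H2B, H3 and H4, and the linker histone H1 binds where it enters and leaves. Clustered histone genes supply the bulk of these proteins while DNA is replicated, and most of their transcripts end in a stem-loop that takes the place of a poly(A) tail. Variant genes such as H3f3a, H3f3b and H2afz have introns, give polyadenylated transcripts and are read at all times, also in neurons that will not divide again. In the postnatal cerebellum, granule cell precursors (GCPs) divide in the external granule layer before they become postmitotic granule cells, so dividing and resting cells of the same lineage lie side by side. Mki67 encodes KI67, a nuclear protein of cycling cells.

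The cells came from cerebella of C57BL/6 mice at postnatal day 7, were enriched for GCPs on a Percoll density gradient and were caught individually on C1 Fluidigm chips for Smart-seq, which amplifies cDNA. Neither a treatment nor a mutation separated the samples, and the labels name no animals. A library number in the titles sorts the 109 cells into 6 groups with 18 or 19 cells in each, called library groups, and these served as the replicates. The Mki67-high class held 32 cells (between 3 and 8 in each library group) and the Mki67-low class held 75 (10 to 15), while 2 cells of library group 2 lay between the limits and entered no comparison.

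Mki67-high cells had a median of 4157700 counts and 4967.5 detected genes, against 3580460 counts and 4193 genes in Mki67-low cells. Counts of 13533 and 12684 genes set 2 Mki67-high cells of library groups 3 and 6 apart from the rest, which had 6420 at most, and these 2 held counts of 38 and 35 of the 40 clustered genes. Of the cells between the limits, 1 had only 15071 counts. All 8 listed markers of the granule cell lineage were present, with a summed level of 2559 to 5882 CPM in the pooled Mki67-high cells and 3645 to 7328 CPM in the pooled Mki67-low cells. The 8 astroglial markers summed to 99.4 to 2014 against 53.0 to 2534 CPM, the 8 oligodendrocyte markers to 61.4 to 2507 against 288 to 2109 CPM, the 5 microglial markers to 0 to 144 against 0 to 1.74 CPM, and the 5 markers of inhibitory neurons to 0 to 35.6 against 36.1 to 806 CPM. Of 5 endothelial markers 3 were listed, with sums of 0 to 9.88 and 0 to 25.8 CPM, and Flt1 was at 0 in the Mki67-low cells. The part of these other cell types in the differences below was not tested, except that 3 Mki67-high cells and 1 Mki67-low cell with 5 or more astroglial genes of at least 50 CPM were left out in an alternative.

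The 3′ ends of the annotated transcripts differed between both sets of genes, with exceptions in each set. A stem-loop of 16 bases, with a perfect stem of 6 base pairs that starts with GG and a loop of 4 bases that starts with TT, was found in annotated transcripts of 29 of the 40 clustered genes. Among the variant genes only H2afx held it, and 0.552% of 21901 other protein-coding genes did. The loops below, from GENCODE transcripts on GRCm38, are shown because the clustered genes share them almost letter for letter. Capitals mark stem and loop, and 5 bases flank them on each side.
Hist1h4d, chr13:23581945-23581970, plus strand: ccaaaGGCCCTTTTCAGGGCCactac
Hist1h1c, chr13:23739507-23739532, plus strand: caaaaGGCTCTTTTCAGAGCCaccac
Hist1h2ae, chr13:23570663-23570688, minus strand: acaaaGGCTCTTTTCAGAGCCattca
Hist1h3f, chr13:23544927-23544952, plus strand: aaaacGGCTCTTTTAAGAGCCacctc
Hist2h2ac, chr3:96220413-96220438, minus strand: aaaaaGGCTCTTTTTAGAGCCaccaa
Hist1h4i, chr13:22040961-22040986, minus strand: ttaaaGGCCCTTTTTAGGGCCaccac
H2afx, chr9:44335235-44335260, plus strand: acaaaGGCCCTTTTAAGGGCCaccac
Only 5 different stem-loops occurred among the 29 clustered genes, and that of Hist1h1c stood in 18 of them. H4 genes such as Hist1h4d carried a stem rich in C and G, and H2afx had a stem of the same letters with a different loop.

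Promoters from the RefSeq table (250 bases before to 50 after the start, GRCm38.p6) were matched for 36 clustered and 10 variant genes. Both strands were searched for the letters CCAAT, which NF-Y is known to bind, for a form of the element near many start sites, TATAAA, and for part of the octamer motif, ATTTGCA. None of these motifs holds another. CCAAT stood in 33 of 36 clustered and 6 of 10 variant promoters and in 37.4% of all 32851 promoters. TATAAA stood in 23 of 36 clustered promoters, in that of H3f3b alone among the variants, and in 13.6% of all promoters. ATTTGCA, known from H2B promoters, stood in 10 of the 20 clustered H2A and H2B promoters, in none of the 16 of H1, H3 and H4, in 1 of 10 variant promoters (H3f3b) and in 4.02% of all promoters. Promoter windows of neighbouring genes can overlap, as those of Hist1h2ae and Hist1h2bg do, so 1 site can be counted for both genes. The 120 bases before the start are shown for clustered genes of 3 types and for variants with and without TATAAA, with CCAAT and TATAAA on either strand in capitals.
Hist1h1b, chr13:21780626-21780745, minus strand: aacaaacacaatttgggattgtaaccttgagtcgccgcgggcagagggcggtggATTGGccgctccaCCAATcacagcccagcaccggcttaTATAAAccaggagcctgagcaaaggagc
Hist1h4d, chr13:23581448-23581567, plus strand: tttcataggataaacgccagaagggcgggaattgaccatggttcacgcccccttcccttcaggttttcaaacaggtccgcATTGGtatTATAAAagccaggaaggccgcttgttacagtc
Hist1h2ab, chr13:23750968-23751087, plus strand: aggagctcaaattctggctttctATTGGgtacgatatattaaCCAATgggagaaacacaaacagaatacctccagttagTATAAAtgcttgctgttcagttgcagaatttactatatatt
H3f3b, chr11:116024505-116024624, minus strand: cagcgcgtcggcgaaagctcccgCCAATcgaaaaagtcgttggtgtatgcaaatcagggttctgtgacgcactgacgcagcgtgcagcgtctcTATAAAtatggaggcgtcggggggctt
H2afz, chr3:137864367-137864486, plus strand: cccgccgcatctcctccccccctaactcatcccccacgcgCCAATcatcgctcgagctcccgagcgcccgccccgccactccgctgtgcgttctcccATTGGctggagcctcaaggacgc
A match of letters describes the sequence and does not show binding.

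Reads of clustered histone genes were several times more abundant in Mki67-high than in Mki67-low cells, while the summed levels of variant genes lay close together in most library groups. Summed over the pooled cells of each library group, the clustered genes reached 247 CPM (lowest), 352 CPM (median) and 497 CPM (highest) in the Mki67-high class. In the Mki67-low class they reached 15.5, 78.8 and 260 CPM. The Mki67-high sum was above the Mki67-low sum in 6 of 6 library groups, by 2.31 on the log2(CPM + 1) scale (median; range 0.43 to 3.91). Without Hist1h4d, the gene with the most counts, it was higher in 5 of 6 by a median of 2.28, and in library group 5 it was lower, at 216 against 260 CPM. Both classes overlapped only through library group 5, whose Mki67-low cells, at 260 CPM, exceeded the Mki67-high cells of library group 6, at 247 CPM. The variant genes summed to 2359, 3513 and 7924 CPM in the Mki67-high class and to 2899, 3069 and 3631 CPM in the Mki67-low class. They were higher in the Mki67-high class in 5 of 6 library groups, by a median of 0.20 on the log2(CPM + 1) scale, and the ranges overlapped throughout. H3f3b alone gave 69.9% of all variant counts, and without it the difference was 0.48. Clustered genes took 0.0178% of all counts and variant genes 0.340%.

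**Figure D1:**
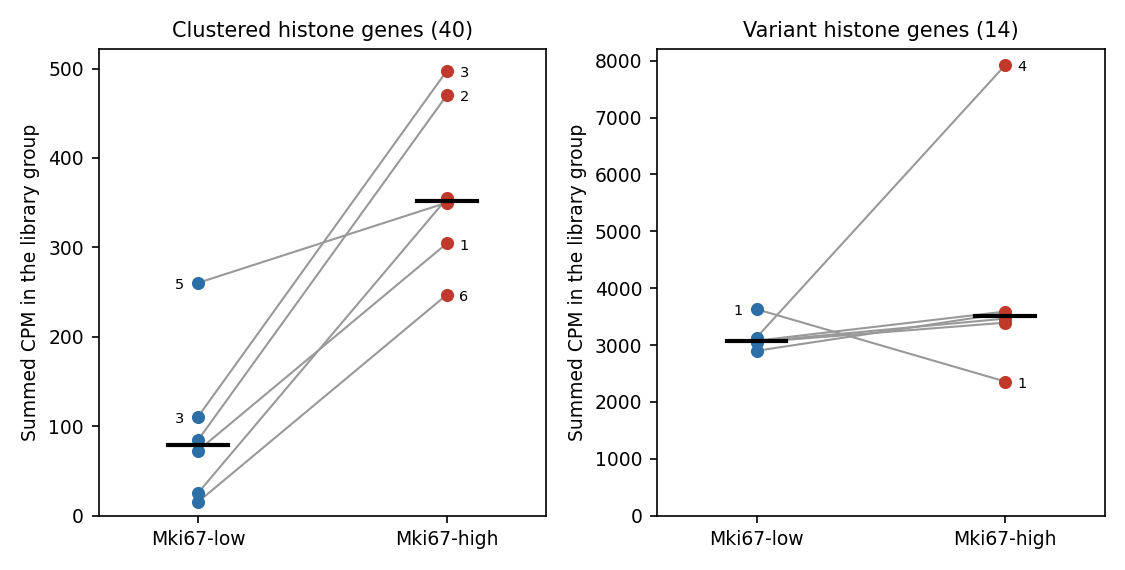
Summed CPM of the 40 clustered (left) and 14 variant (right) histone genes in the pooled Mki67-low and Mki67-high cells of each library group. Lines join the classes of a library group, black bars are medians and digits name library groups that stand clear of the others. The clustered sum was higher in the Mki67-high class in 6 of 6 library groups, with the Mki67-low cells of library group 5 at 260 CPM, and the variant sum reached 7924 CPM in library group 4.

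Among the clustered genes, the sums of the H3 genes and of the H4 genes were separated between the classes without overlap. Clustered H4 genes summed to 81.0, 118 and 246 CPM (lowest, median and highest library group) in Mki67-high and to 0.89, 17 and 46.7 CPM in Mki67-low cells. Most H4 reads of the Mki67-high pools came from Hist1h4d, at 58.3, 114 and 238 CPM against 0.33, 2.50 and 37.4 CPM in Mki67-low pools. No other H4 gene separated the classes, so the separation of the H4 sum rested on Hist1h4d. Hist2h4 (0, 0.088 and 13.7 against 0, 0 and 31.2 CPM) was higher in 1 library group and lower in 2. Hist1h4i was higher in 5 and lower in 1, Hist1h4a in 2 and 1, and Hist1h4c, Hist1h4h and Hist1h4n in 4 and 0. Clustered H3 genes had few counted reads in both classes, with 0.86, 5.44 and 26.6 CPM against 0, 0.012 and 0.084 CPM. No single H3 gene separated the classes, and each had a count in only 3 to 6 cells. The Mki67-high sums of library groups 4 to 6 were 0.86 to 1.22 CPM. In library group 1, single cells held 185 of the 187 Mki67-high counts of Hist1h3h and 167 of the 177 of Hist1h3f. The sums of the H1 genes (median 92.4 against 5.64 CPM) and H2A genes (57.1 against 13.1 CPM) were higher in Mki67-high cells in 6 of 6 library groups, with overlapping ranges. The H2B genes had medians of 36.6 against 7.89 CPM and were higher in 4 of 6 library groups. In library group 5 the H2B genes reached 218 CPM in the Mki67-low cells.

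Hist1h4d, an H4 gene at chr13:23581598-23582735, held more counts than any other clustered gene, 17965 in 57 cells. It lay at 58.3, 114 and 238 CPM in Mki67-high and at 0.33, 2.50 and 37.4 CPM in Mki67-low pools. All Mki67-high pools stood above all Mki67-low pools. It was counted in 25 of 32 Mki67-high cells (78.1%, Wilson interval at 95% confidence 61.2 to 89.0%) and in 31 of 75 Mki67-low cells (41.3%, 30.9 to 52.6%). In the positive Mki67-low cells the median was 5 counts, against 488 in the positive Mki67-high cells. These intervals treat the cells as independent draws and leave out the spread between library groups, and the reads carry no molecular identifiers. Hist1h4c had 331 counts in 7 Mki67-high cells and none in 75 Mki67-low cells, which is at least 228-fold higher when the Mki67-low class as a whole is set to a floor of 3 counts. A single cell of library group 5 held 279 of these counts, and without that library group the bound was 41.3-fold.

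The linker histone genes Hist1h1a, Hist1h1b and Hist1h1c had few reads in the Mki67-low class. Hist1h1b ran from 2.70 over a median of 14.1 to 69.3 CPM in Mki67-high pools and from 0 over 0.135 to 1.02 CPM in Mki67-low pools. Hist1h1c, which encodes H1.2, ran from 1.18 over 3.03 to 14.4 CPM and from 0 over 0.0125 to 0.302 CPM. Neither gene overlapped between the classes. Hist1h1b was counted in 65.6% of Mki67-high and 9.33% of Mki67-low cells, and Hist1h1c in 50% and 5.33%. Hist1h1a reached 76.4 CPM in the highest Mki67-high pool and was at 0 in the lowest, and in the Mki67-low class it was counted in 1.33% of cells. Hist1h1e, the H1.4 gene, was also frequent in the Mki67-low class. It was counted in 68.8% of Mki67-high and 38.7% of Mki67-low cells and lay at 1.20, 28 and 84.8 CPM against 0.025, 4.94 and 41.0 CPM, so that its ranges overlapped widely. Hist1h1d was at 0, 1.12 and 14.5 against 0, 0.027 and 4.83 CPM and was higher in the Mki67-high pool in only 2 library groups.

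Of the H2A and H2B genes, Hist1h2ae at chr13:23570517-23571220 was the most regular. It lay at 12.2, 28.8 and 44.5 CPM in Mki67-high and at 0.13, 0.83 and 11 CPM in Mki67-low pools, without overlap, and was counted in 62.5% and 14.7% of cells. Hist1h2ab (0.59, 10.3 and 37.0 against 0, 0 and 3.71 CPM) was higher in 6 of 6 library groups and Hist2h2ac (0, 5.48 and 38.0 against 0, 0.0075 and 0.034 CPM) in 5, with none lower. Hist1h2ag ran from 0.21 to 7.71 CPM in Mki67-high and from 0 to 8.03 CPM in Mki67-low pools. The H2B genes were less regular: Hist1h2bc lay at 0, 27.6 and 67.1 against 0, 1.31 and 81.5 CPM, Hist1h2be at 0, 3.81 and 97.9 against 0, 0 and 136 CPM and Hist1h2bj at 0, 2.42 and 6.72 against 0, 0 and 6.57 CPM. All 3 ranges overlapped. The annotated span of Hist1h2be runs over Hist1h1e on the same strand, so reads in the shared stretch could be counted for either gene or left out.

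Hist3h2a and Hist3h2ba form the pair on chromosome 11. Hist3h2a was lower in the Mki67-high pool in 5 library groups and higher in none, with 0, 0.23 and 6.13 CPM against 0, 10.7 and 20.2 CPM. It was counted in 12.5% of Mki67-high cells (interval 4.97 to 28.1%) and in 26.7% of Mki67-low cells (18 to 37.6%), the only clustered gene with a count in a smaller share of the Mki67-high class. GENCODE places it inside the span of Trim17 on the same strand, so its reads cannot be told apart from those of Trim17 in the shared part. Hist3h2ba lay at 0, 1.81 and 3.39 against 0, 0.72 and 19.4 CPM, higher in 3 library groups and lower in 3. Without these genes the clustered sum was higher in Mki67-high pools by a median of 2.85 on the log2(CPM + 1) scale.

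H2afx stood out among the variants. This gene for the H2A variant that is phosphorylated at DNA breaks ran from 8.04 over 33.6 to 102.4 CPM in Mki67-high pools and from 0 over 0.083 to 3.45 CPM in Mki67-low pools, with no overlap. It was counted in 17 of 32 (53.1%, 36.4 to 69.1%) and 8 of 75 cells (10.7%, 5.50 to 19.7%). It was also the only variant with the stem-loop shown above. H2afz, which encodes H2A.Z, lay at 150, 277 and 894 CPM against 48.4, 96.2 and 137 CPM. Its pools did not overlap either, although its reads were present in 96.9% of Mki67-high and 93.3% of Mki67-low cells. Of its 50-base stretches, 69.6% occur in transcripts of other genes, mainly Tmcc1, so its level depends on how shared reads were counted. H2afv, the second H2A.Z gene, was higher in 6 of 6 library groups, with 285, 397 and 616 against 92.1, 247 and 495 CPM and overlapping ranges.

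The H3.3 genes overlapped between the classes. H3f3b lay at 1305, 2243 and 6178 CPM in Mki67-high and at 2027, 2166 and 2488 CPM in Mki67-low pools, higher in 4 library groups and lower in 2. It had a count in each of the 109 cells. H3f3a, which encodes the same protein, lay at 47.4, 107 and 187 against 53.1, 114 and 188 CPM, higher in 3 library groups and lower in 3. Per kb of exon, H3f3b exceeded H3f3a by a factor of 11.6, 25 and 153 in Mki67-high and of 12.7, 23.5 and 48.7 in Mki67-low pools. Per kb, the counted reads of both H3.3 genes were 10.8, 279 and 2043 times those of the clustered H3 genes in Mki67-high pools. In the 3 Mki67-low pools with a clustered H3 count they were 11208, 13205 and 31047 times as many. No ratio was formed in the other Mki67-low pools. These ratios compare counted reads and not transcripts. How fully transcripts without a poly(A) tail were captured was not tested. Of the 50-base stretches of Hist1h3h and Hist1h3i, 93.9% and 87.6% occur in other genes, so their reads may be left out.

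The other variants did not separate the classes. The macroH2A genes H2afy (89.1, 161 and 378 against 92.8, 203 and 536 CPM) and H2afy2 (2.98, 15.6 and 38.7 against 5.17, 49.2 and 65.5 CPM) were higher in the Mki67-high pool in 3 and in 1 of 6 library groups. H1f0, the linker histone of resting cells, lay at 38.5, 128 and 271 against 26.7, 103 and 426 CPM and was higher in 3 library groups. H2afj ran from 0 over 2.49 to 36.8 against 0 over 14.6 to 40.7 CPM, and H1fx from 1.12 over 2.67 to 8.54 against 0 over 0.787 to 3.45 CPM. The pseudogenes H2afy3, H3f3c, H3f3a-ps1 and H3f3a-ps2 had 206, 21, 108 and 38 counts in all cells, and 82.0% of the 50-base stretches of H3f3a-ps2 occur elsewhere, mainly in H3f3a.

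Counts of the clustered genes were spread over more Mki67-high cells. A count was found in a larger share of Mki67-high than of Mki67-low cells for 39 of 40 clustered and 13 of 14 variant genes, against 79.2% of all 15972 genes other than Mki67. The high share among all genes moved with the gene-rich cells: without the cells of unusual depth it fell to 62.6%, with 38 of 40 clustered and 11 of 14 variant genes. After each cell was thinned to 1000000 counts, it was 78.6%, with 39 and 11. Where at least 5 counts were asked for, it was 83.5%, with 36 of 38 clustered and 10 of 13 variant genes that reached this number, and without the cells with astroglial genes 62.9%, with 38 and 11. The median gain was 18.3 percentage points for clustered genes, 6.31 points for variants and 5.83 points for all genes, and after thinning 12.7, 10.8 and 5.38 points. With at least 5 counts the order of both sets turned, with 12.5, 14.4 and 6.29 points. Without the cells of unusual depth the gains were 13, 5.33 and 2.67 points, and without those with astroglial genes 12.1, 4.85 and 2.24 points. Counts were absent from all 75 Mki67-low cells for 8 of 40 clustered genes, namely Hist1h3f, Hist1h4c, Hist1h2bh, Hist1h3b, Hist1h2bp, Hist1h2an, Hist1h3h and Hist1h3i, which held 6 to 331 counts in 3 to 8 Mki67-high cells. Of all 15972 genes, 286 had no count in Mki67-low cells and 239 none in Mki67-high cells. The number depends on the cut: at least 5 counts were reached in no Mki67-low cell by 19 of 40 clustered and 2607 of all 15972 genes. Set against the assumed floor of 3 counts over the Mki67-low class, the levels of the 8 genes were 4.13-fold (Hist1h3i) to 228-fold (Hist1h4c) that floor. These genes were picked for their lack of Mki67-low counts, and all had more than 3 Mki67-high counts. The ratios thus exceed 1 by choice and test nothing. Most of these ratios rested largely on 1 library group. Without the group with the most counts of the gene they were 5.45-fold (Hist1h2bh) to 99.4-fold (Hist1h2an) for 6 genes, 41.3-fold for Hist1h4c included. Hist1h3h and Hist1h3i then kept only 2 and 3 counts, at or under the floor.

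**Figure D2:**
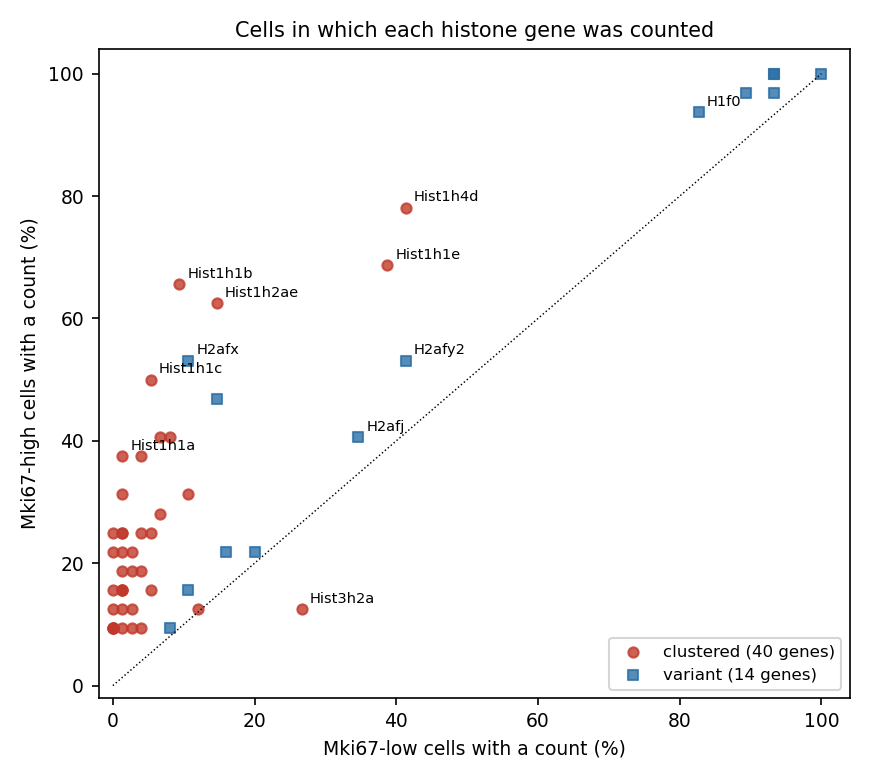
Percentage of the 75 Mki67-low (x axis) and 32 Mki67-high cells (y axis) with at least 1 count of each of the 54 histone genes, and the dotted line marks equal shares. Of the clustered genes 39 of 40 lie above the line, most of them at low shares and Hist1h4d at 41.3% against 78.1%, with Hist3h2a (26.7% against 12.5%) below it and Hist3h2ba (12% against 12.5%) close to it, and the abundant variants lie near the upper right corner.

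Single genes were tested with edgeR's quasi-likelihood test on the pooled counts, with Benjamini-Hochberg adjustment over all 9084 genes that passed a filter on low counts and a call at an adjusted p under 0.01. These p-values measure only the spread between library groups, and a gene that was not called is not shown to be equal in both classes. The filter was passed by 12 of 40 clustered and 10 of 14 variant genes, and a scarce gene could pass it only if it was high in some pools, so counts over the tested genes describe them and no others. No clustered and no variant gene was called, against 0.022% of tested genes called higher (2 genes) and none lower. At an adjusted p under 0.05 no histone gene was called either, against 0.0661% higher, and limma-voom at this limit called H2afx alone higher, against 0.341%, and no histone gene lower, against 0.0661%. The biological coefficient of variation between pools was 172%, and the median log2 fold change over all tested genes was -0.18, with 45.2% above 0. Of the tested histone genes, 10 of 12 clustered and 5 of 10 variant genes lay above 0. At an unadjusted p under 0.05, 5 clustered (Hist1h1a, Hist1h1b, Hist1h1c, Hist1h2ae and Hist1h4d) and 2 variant genes (H2afx and H2afz) were higher and none lower, against 2.94% of tested genes higher and 4.39% lower. The largest log2 fold changes were 7.08 ± 2.53 for Hist1h1a, 6.32 ± 1.65 for Hist1h1c, 6.16 ± 1.85 for Hist1h1b and 5.86 ± 1.94 for H2afx (± SE, 6 pools a class), with adjusted p of 0.537, 0.361, 0.428 and 0.479 in edgeR. The value of Hist1h1a ran from 5.05 without library group 2 to 12.4 without library group 1, and that of Hist1h2ab (4.27 ± 2.26) from 3.04 without library group 1 to 11.9 without library group 3. Without library groups 1 and 3, respectively, the Mki67-low class held no count of these genes, and the fitted value then depends on the prior count. For Hist1h4d it was 3.46 ± 1.35 (adjusted p = 0.592) and for H2afz 1.95 ± 0.73 (adjusted p = 0.584). For H3f3b, at 0.27 ± 0.37, the standard error was smallest. Hist3h2a had -3.14 ± 1.89 (adjusted p = 0.745), and with cells counted as cycling by Mki67 or Top2a the value shrank to -1.54.

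**Figure D3:**
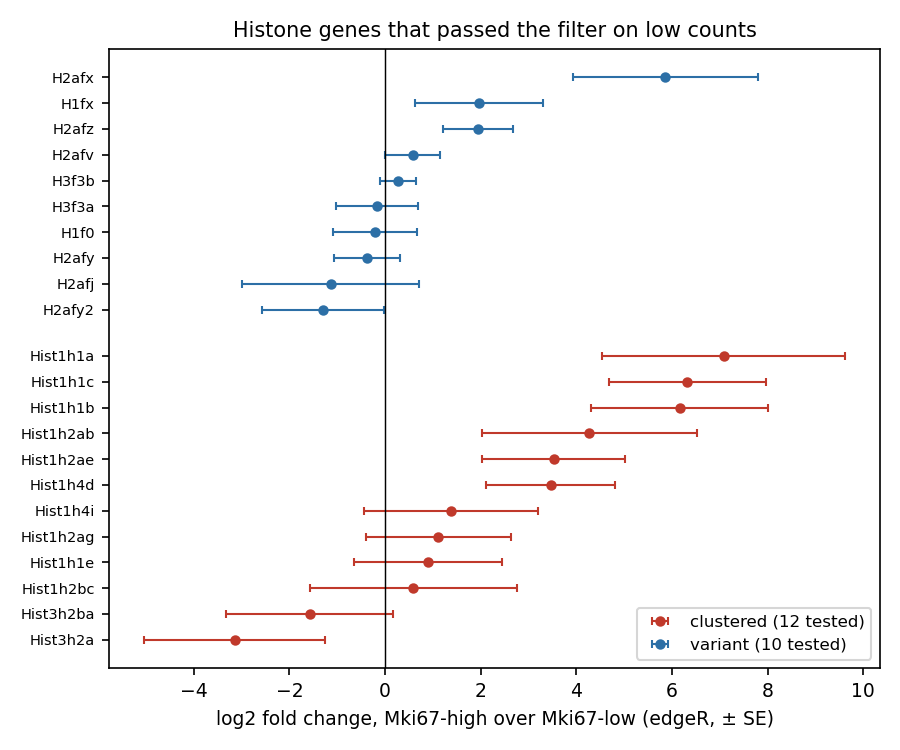
Log2 fold change (Mki67-high over Mki67-low, edgeR, bars ± SE, 6 pools a class) of the 12 clustered and 10 variant histone genes that passed the filter on low counts. None was called: Hist1h1a (7.08), Hist1h1c (6.32), Hist1h1b (6.16) and H2afx (5.86) lie farthest to the right, H3f3b (0.27) and H3f3a (-0.16) near 0 and Hist3h2a (-3.14) farthest to the left.

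The choice of test decided the calls. DESeq2 on the same pools called 7 clustered genes higher (Hist1h1b, Hist1h1c, Hist1h2ae, Hist1h2an, Hist1h4c, Hist1h4d and Hist2h2ac) of 28 with an adjusted p, and H2afx of 11 variants, against 2.47% of 10810 genes. Hist1h2an, Hist1h4c and Hist2h2ac had not passed edgeR's filter. With 0, 0 and 3 counts in all Mki67-low cells, they got an adjusted p only through the class where they were high. The counts over these 28 genes thus describe them and no others. No histone gene was called lower by DESeq2, against 1.01%. In edgeR's fit, 5 of 12 tested clustered and 3 of 10 tested variant genes were higher in Mki67-high pools in 6 of 6 library groups, against 2.19% of tested genes, and none was lower in all 6, against 3.2%. With untested genes included, the counts were 6 of 40 and 3 of 14, against 1.47% of all genes. All Mki67-high pools stood above all Mki67-low pools for 4 tested clustered (Hist1h1b, Hist1h1c, Hist1h2ae and Hist1h4d) and 2 tested variant genes (H2afx and H2afz), against 0.627%, and the reverse held for no tested histone gene, against 0.451%. With untested genes included, the counts were 5 of 40 (Hist1h2ak besides) and 2 of 14, and no share of all genes was formed. Hist1h1c, with 15 counts in all Mki67-low cells, passed the filter through the Mki67-high pools, so shares of tested genes are no independent support.

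In single cells the clustered genes were unevenly spread in both classes. Their summed level had a median of 288 CPM over 32 Mki67-high cells (range 0 to 2391) and of 6.00 CPM over 75 Mki67-low cells (range 0 to 955). At least 100 CPM were reached by 24 Mki67-high and 15 Mki67-low cells, and no clustered read was counted in 1 and 10 cells. A median of 8 clustered genes was counted per Mki67-high and 2 per Mki67-low cell, or 6 and 1 after thinning, and 5.5 and 1 when at least 5 counts were asked for. Of all values of clustered genes in single cells, 88.3% were 0.

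**Figure D4:**
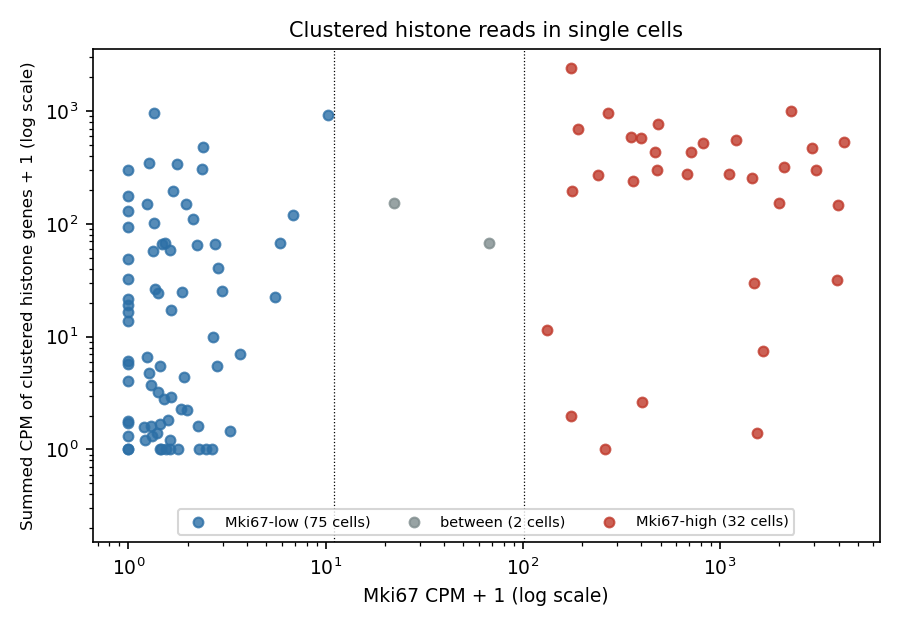
Summed CPM of the clustered histone genes against Mki67 CPM in the 109 cells, each raised by 1, both axes logarithmic, with dotted lines at the class limits of 10 and 100 CPM. The Mki67-high cells form a band near their median of 288 CPM with a tail down to 0, and the Mki67-low cells spread from 0 to 955 CPM.

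Where Mki67-low cells did hold many clustered reads, these came mostly from a single gene. Among cells with at least 100 clustered counts, 25 in each class, the leading gene gave a median of 48.8% of the clustered reads in Mki67-high and 92.7% in Mki67-low cells. In the Mki67-high cells the leader was most often Hist1h4d (13 cells) or Hist1h2bc (5 cells), and in Mki67-low cells Hist1h4d and Hist3h2a (5 cells each) or Hist1h1e (4 cells). The large clustered sum of the Mki67-low pool of library group 5 rested on such cells. In cells of this pool with 955, 920 and 345 CPM, Hist1h2be, Hist1h2bc and Hist2h4 gave 99.98%, 90.8% and 100% of the clustered reads. By contrast, the Mki67-high cell with the most clustered reads, 2391 CPM in library group 3, had counts of 11 clustered genes and took 56.5% from Hist1h2be. Among Mki67-low cells, the 10 with a Top2a CPM of at least 100 had a median of 78.0 clustered CPM and the 58 with a Top2a CPM below 10 had 4.22. Top2a encodes the topoisomerase that untangles replicated chromosomes.

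Within the Mki67-high class, clustered histone reads moved with genes of the G2/M list more closely than with those of the S-phase list. Across its 32 cells, the log2 clustered CPM correlated with the mean level of the G2/M genes at r = 0.67 (Spearman's rho 0.57) and with that of the S-phase genes at r = 0.14 (rho 0.13). The values without the 2 gene-rich cells were r = 0.68 and 0.11. Correlation with H2afz was 0.57, with Mki67 itself 0.07 and with total counts 0.12. With the number of detected genes it was 0.29, or 0.43 without the 2 gene-rich cells. These are descriptions across cells that share library groups and depth. They concern counted reads in cells chosen by Mki67, and how fully transcripts without a poly(A) tail were captured was not tested. The phase in which the clustered genes are transcribed cannot be read from these values. Over all 109 cells the values were 0.60 for the G2/M list, 0.38 for the S-phase list, 0.06 for total counts and 0.34 for detected genes. The 5 other genes most like the clustered sum over 109 cells, by Pearson's r of log2(CPM + 1), were Top2a (0.60), Pbk (0.59), Prc1 (0.56), Esco2 (0.56) and Cenpf (0.54). Top2a, Prc1 and Cenpf act on chromosomes or the spindle in mitosis, and Esco2 acetylates cohesin in S phase.

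**Figure D5:**
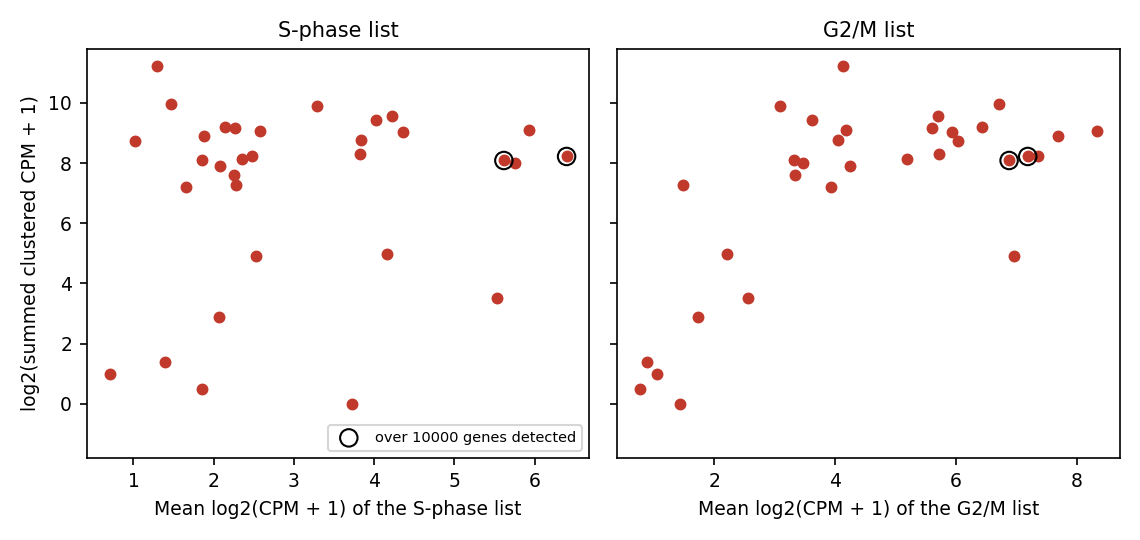
Log2 of the summed clustered histone CPM + 1 in the 32 Mki67-high cells against the mean log2(CPM + 1) of the S-phase list (left, r = 0.14) and of the G2/M list (right, r = 0.67), with circles around the 2 cells with over 10000 detected genes. Most cells with few clustered reads have low G2/M levels, while on the left they lie over most of the range.

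Genes that act on histone transcripts and proteins were read from lists. Of 12 genes of histone mRNA processing, 11 were tested and 0 were called by edgeR, against 0.022% of all tested genes called higher. At an unadjusted p under 0.05, 0 were higher and 1 lower, against 2.94% and 4.39%, and DESeq2 called 0 of 8, against 2.47% higher and 1.01% lower. The median log2 fold change was 0.38. Slbp, the protein that binds the stem-loop, had a median of 127 CPM in Mki67-high and 55.6 CPM in Mki67-low pools and a log2 fold change of 0.48 ± 1.06. Lsm11, a subunit of the U7 particle that cuts histone pre-mRNA, had -6.57 ± 2.69 (edgeR, adjusted p = 0.633) although it was higher in 2 and lower in 3 library groups. Of 28 chaperones and exchange factors, 27 were tested and 0 were called by edgeR, against the same 0.022%, with 2 higher and 0 lower at an unadjusted p under 0.05 (2.94% and 4.39% of all tested genes) and a median of 0.67. DESeq2 called 1 of 26, against 2.47%. Asf1b, which hands H3 and H4 to the replication machinery, had 9.63 ± 2.52 (adjusted p = 0.361) and a median of 123 against 0.085 CPM, was higher in 4 library groups and lower in none, and was the gene called by DESeq2. Dek (2.57 ± 0.78), Rbbp7 (1.73 ± 1.07) and Hirip3 (3.14 ± 2.14) were higher in 6 of 6 library groups, 3 of 27 tested, against 2.19% of tested genes. Cenpa, the centromeric H3, was higher in 6 of 6 as well, at 3.97 ± 1.73 (adjusted p = 0.657). Of the S-phase list 0 of 38 tested genes were called and of the G2/M list 2 of 49, against 0.022% of all tested genes, with medians of 1.30 and 3.59.

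The annotated ends of the transcripts differed among the clustered genes. In 17 genes an annotated transcript ran on for 151 to 4884 bases past the stem-loop, in 12 genes it ended within 11 to 57 bases of it, and in 11 genes no stem-loop was found. Only annotated transcripts were searched, so these 11 genes are not shown to lack a stem-loop. Several have short annotated transcripts, such as 393 bases for Hist1h2ai, Hist1h2ak and Hist1h2an and 743 for Hist1h1b. A stem-loop past such an end would be missed. The first set, to which Hist1h4d, Hist1h1c and Hist1h1e belong, gave 71.3% of all clustered counts, the second 8.22% and the third, with Hist1h1a, Hist1h1b and Hist1h2bc, 20.4%. Per kb of exon the median counts were 670, 517 and 321 a gene. All 3 sets were higher in Mki67-high pools in 6 of 6 library groups, with medians of 254 against 71.4 CPM, 33.2 against 3.16 CPM and 80.9 against 1.87 CPM. Clustered genes also shared more sequence with other genes than the variants did. A median of 43.5% of the 50-base stretches of a clustered gene occur in other genes on either strand, against 14.5% for variants. Genes annotated over the same stretch are included, such as Hist1h2be for Hist1h1e and Trim17 for Hist3h2a. Reads of shared stretches may be divided between genes or left out of the counts.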

How the data were processed

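Smart-seq libraries of 109 single cells from GCP preparations of P7 cerebella were measured. The processing notes of the authors name STAR 2.4.1d, HTSeq 0.6.1 and the mm10 build for alignment and counting. The deposited values are raw read counts without normalization, and the annotation, strand setting and counting mode are not given in the sources used here. Totals ran from 15071 to 8616017 counts per cell (median 3604792), and each listed gene had a count in at least 3 cells. All cells were kept and doublets were not called. Columns were joined to samples by their titles.

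Counts were summed over the cells of each Mki67 class in each of 6 library groups, and the resulting pools were filtered with filterByExpr, TMM-normalized and compared with edgeR 4.0.16 (quasi-likelihood test, R 4.3.3) without a block. Mki67, which defined the classes, was left out of the tests. Standard errors were derived from the log2 fold change and its F statistic. DESeq2 1.42.0, limma-voom (limma 3.58.1) and other alternatives are given in the closing section. Sequences and positions came from GENCODE M21 (GRCm38) and RefSeq, in which 46 of 54 promoters matched. Named genes were all variants, the 15 clustered genes counted in the most cells, the leading genes of the lists and the 5 genes most like the clustered sum. Other genes named were chosen after their values were seen. Genes, lists and class limits were chosen with earlier results of these data known.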

Additional observations from a re-analysis of the deposited data

Results flagged for a closer look

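In 62 sets of 6 pools, the highest or lowest pool was compared with the nearest other by Dixon's test at its 95% level, which flags about 1 set in 20 by chance, and 15 pools stood apart. The Mki67-high pool of library group 4, which holds 3 cells, had a variant sum of 7924 CPM, with the next at 3590 CPM, and the Mki67-low pool of library group 1 had 3631 CPM, with the next at 3133 CPM. Among variants, H2afx lay at 3.45 CPM in the Mki67-low pool of library group 4 (next 0.340), H2afy3 at 0.0911 CPM in the Mki67-high pool of library group 3 and at 5.57 CPM in the Mki67-low pool of library group 2, H3f3c at 0.176 CPM in the Mki67-low pool of library group 5, and H3f3a-ps1 at 1.24 CPM in that of library group 6. The other flags all concerned single high Mki67-low pools of clustered genes. In library group 3 these were Hist1h1b at 1.02, Hist1h2ab at 3.71, Hist1h2bj at 6.57 and Hist1h1d at 4.83 CPM. In library group 1 they were Hist1h1c at 0.302 and Hist1h1a at 0.743 CPM, in library group 2 Hist3h2ba at 19.4 CPM and in library group 5 Hist1h2be at 136 CPM (next 0.238).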

How the results depend on the processing

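Under 18 alternatives, the number of clustered histone genes called was 0 except with DESeq2, which called 7, and that of variant genes 0 except with DESeq2, which called 1. Among all genes, 2 were called in the main comparison, 376 with DESeq2, 6 with limma-voom, 6 at an adjusted p under 0.05, 1 without astroglial cells, 1 without cells of unusual depth, 0 against Mki67-low cells without any Mki67 count and 0 to 1 when each library group was left out. The library group as a block gave 0 calls among all genes and among histone genes. Pools of the same library group were weakly alike, and the main comparison left this out. Deviations of both classes in the same library group correlated at r = 0.043 to 0.125, above 0 in all 6. The Mki67-low pool of their own group was the best match for 5 of 6 Mki67-high pools. The median difference of the clustered sum ranged from 2.16 to 2.99 over 14 alternatives and that of the variant sum from 0.026 to 0.48, on the log2(CPM + 1) scale. The alternatives with cells counted as cycling by Mki67 or Top2a, with Hist1h4d or H3f3b left out of a sum, and with cells of unusual depth or astroglial genes left out of the shares of cells were added after the values were seen.

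Of 21 named histone genes that were tested, 15 kept the sign of their log2 fold change in all alternatives run, and 15 of 349 values had the opposite sign, none of them called. H3f3b went from 0.27 to -0.21 with limma-voom and to -0.0045 against cells without any Mki67 count. Against those cells H2afy2 went from -1.31 to 0.28 and H3f3a from -0.16 to 0.17. H3f3a was also at 0.15 with DESeq2, 0.078 without astroglial cells and 0.11 without cells of unusual depth. H1f0 went from -0.20 to 0.011 with DESeq2 and to 0.024 with the block, and Hist3h2ba from -1.58 to 0.57 with limma-voom. Over the fits without 1 library group each, H2afy ranged from -0.56 to 0.056 (above 0 without group 1), H3f3b from -0.16 (without group 4) to 0.43, H3f3a from -0.40 to 0.24 and H1f0 from -0.58 to 0.50 (both above 0 without group 5), and Hist3h2ba from -2.08 to 1.30 (above 0 without group 2). The cause was not tested. Of the counts above 0 of clustered genes in single cells, 36.2% were 1 to 4, so shares of cells with a count rest in part on few reads.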
